A study of Rattus norvegicus with 9 samples.

Results

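Bile acids and foreign compounds are sensed in the liver by a small group of receptors, and 10 of the genes concerned were followed across rat livers with acute-on-chronic liver failure (ACLF). The genes were Nr1h4, Nr0b2, Nr1i2, Nr1i3, Nr1h3, Rxra, Fgfr4, Klb, Gpbar1 and Vdr, chosen by name. In deposited tables of 32883 genes, 9 of them were found by symbol. Klb was found only through its Entrez identifier, on a row with a placeholder symbol, and is therefore kept out of the counts of members below and given separately.

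Bulk liver RNA was sequenced in 9 libraries, 3 from each of 3 groups of male Sprague-Dawley rats. The rats were 8 to 11 weeks old when obtained, and their age at sampling is not given. The normal group is described by its labels only as normal rats. The rats of both other groups had ACLF, made by ligating the bile duct for 21 days and then injecting lipopolysaccharide (LPS) intraperitoneally at 0.25 mg/kg. Starting 1 h after LPS, their blood was passed for 2 h through an extracorporeal circuit. In the empty group that circuit held no cells and no adsorption column. In the UTOpiA group it held a column that removes granulocytes and monocytes together with alginate-encapsulated hepatocyte-like cells, which were derived from gene-edited human induced pluripotent stem cells. ACLF livers were taken 24 h after LPS from rats that were alive at that time, so both ACLF groups describe survivors. Each comparison with the normal group covers ligation, LPS and circuit at once, and any difference in age at sampling.

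The bile acid receptor FXR, encoded by Nr1h4, pairs with RXRα, encoded by Rxra, and when bile acids bind it induces SHP, encoded by Nr0b2, a repressor without a DNA-binding domain that turns down bile acid synthesis. A parallel signal reaches hepatocytes from the intestine as FGF15/19, which binds FGFR4 together with its co-receptor β-Klotho, the products of Fgfr4 and Klb. PXR (Nr1i2) and CAR (Nr1i3) sense drugs and toxic bile acids and drive their oxidation, conjugation and export, LXRα (Nr1h3) senses oxidised cholesterol and drives lipid synthesis and cholesterol export, the vitamin D receptor (Vdr) also binds a secondary bile acid, and TGR5 (Gpbar1) is a bile acid receptor of the cell membrane found mainly outside hepatocytes.

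Between 14241172 and 17321677 reads were counted per library. Levels are given in TPM, the length-scaled share of each gene in all transcripts of a library, which allows comparison between genes. Differences are log2 fold changes of counts scaled by the trimmed mean of M values (TMM) in edgeR's quasi-likelihood test, with p-values adjusted over all 14089 genes tested. A gene was called at an adjusted p under 0.05 and a change of more than 2-fold. Hepatocyte markers were present in every library, but the summed TPM of 10 of them was 165300 to 180500 in normal livers, 33490 to 76370 in the empty group and 38490 to 68280 in the UTOpiA group. Alb made up most of that sum in normal livers. In the empty group 5 of the 10 were called lower, 4 were not called and 1 was called higher (Pck1, a gluconeogenic enzyme). Of all genes, 11.1% were called lower and 20.7% higher there. In the UTOpiA group 4 were called lower and 1 higher (Pck1), against 6.81% and 18.2% of all genes. The 7 cholangiocyte markers summed to 14.6 to 24.8 TPM in normal livers, 323 to 669 TPM in the empty group and 134 to 425 TPM in the UTOpiA group. In bulk tissue, fewer cells of a type and less RNA per cell cannot be told apart. What these shifts contribute to the results below was not tested.

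In normal liver, Rxra and Nr1h3 were the most abundant members, at 158.5 ± 7.6 and 146.7 ± 9.5 TPM (SD, n = 3), and their values overlapped. Nr1i2 followed at 87.3 ± 6.0 TPM and Nr1h4 at 51.9 ± 3.7 TPM, each separate from its neighbours in the order. Nr1i3 and Nr0b2 overlapped at 34.0 ± 6.0 and 32.9 ± 11.1 TPM. The order then continued with Klb at 20.3 ± 2.8 TPM and Fgfr4 at 12.9 ± 0.3 TPM, and ended with Vdr at 0.16 ± 0.08 TPM and Gpbar1, which had no count in any normal library. In the empty group Nr1h3 came first at 116.2 ± 20.5 TPM, and its values overlapped those of Rxra at 79.9 ± 23.3 TPM. In the UTOpiA group all values of Nr1h3, at 134.5 ± 19.6 TPM, lay above those of Rxra, at 99.1 ± 9.5 TPM.

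**Figure D1:**
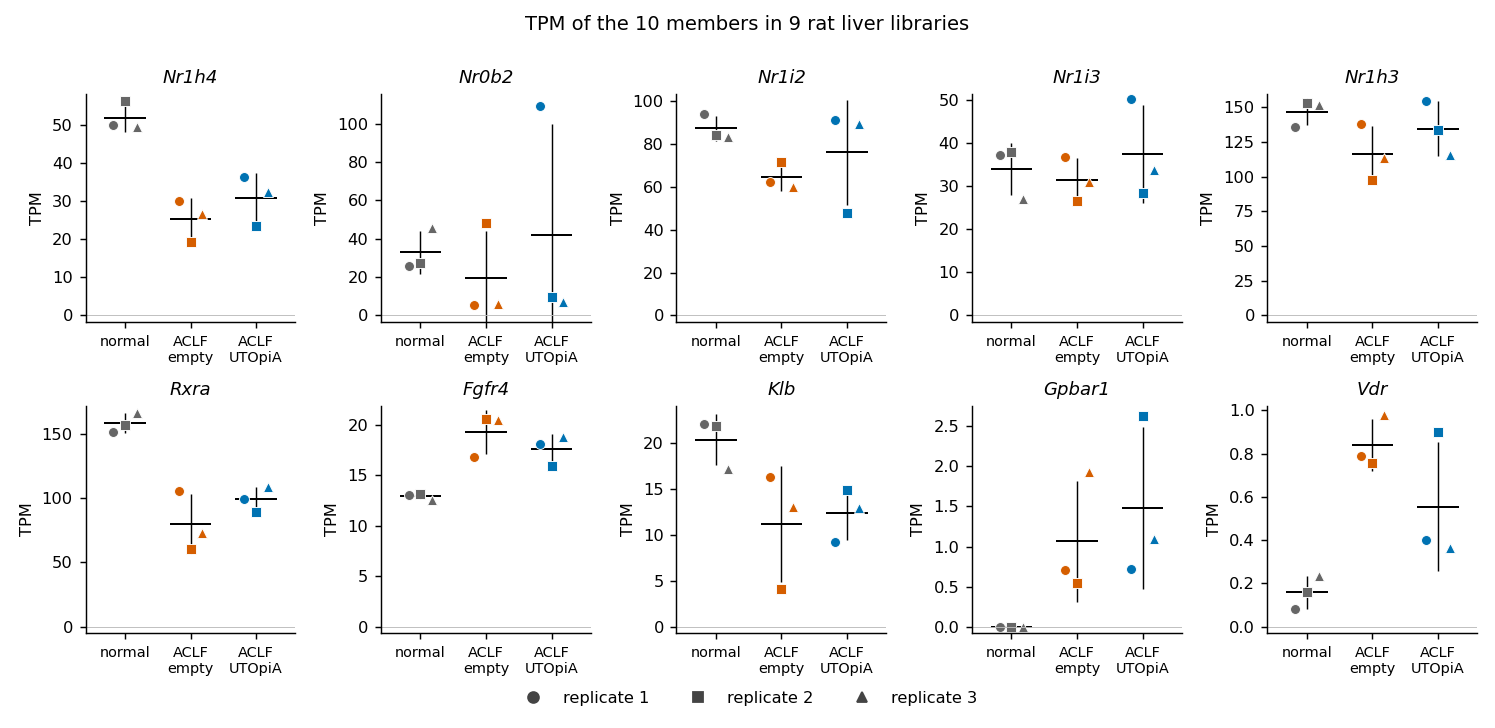
TPM (vertical axes, a separate linear scale for each gene) of the 10 members in the 3 normal, 3 ACLF empty and 3 ACLF UTOpiA livers. Marker shape gives the replicate number, horizontal lines are group means and vertical bars are 1 SD on either side, drawn only down to 0. Nr1h4, Rxra and Klb lie lower in all 6 ACLF livers than in any normal liver. Gpbar1, Vdr and Fgfr4 lie higher in all 6, and Nr0b2 is split within both ACLF groups.

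The promoters of 2 members are shown because they belong to Nr0b2, the member that varied most within each ACLF group, and to the shared partner of the other receptors, Rxra. Both sequences are from RefSeq on build GRCr8 and run 5′ to 3′ on the strand of the gene, from 250 bases before the start of the gene to 50 bases after it. Capitals in Nr0b2 mark TCAAGG, the core bound by LRH-1 (Nr5a2), the TATA box letters TATAAA, and the GC box GGGCGG read on the opposite strand as CCGCCC. Capitals in Rxra mark GC boxes in either orientation.
Nr0b2, chr5:151062910-151063209, + strand: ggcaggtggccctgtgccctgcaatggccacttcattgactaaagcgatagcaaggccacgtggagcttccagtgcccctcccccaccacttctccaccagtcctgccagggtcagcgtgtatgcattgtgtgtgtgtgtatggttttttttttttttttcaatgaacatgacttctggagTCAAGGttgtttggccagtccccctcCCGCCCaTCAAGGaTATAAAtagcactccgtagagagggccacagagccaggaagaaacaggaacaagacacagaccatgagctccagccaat
Rxra, chr3:31387642-31387941, + strand: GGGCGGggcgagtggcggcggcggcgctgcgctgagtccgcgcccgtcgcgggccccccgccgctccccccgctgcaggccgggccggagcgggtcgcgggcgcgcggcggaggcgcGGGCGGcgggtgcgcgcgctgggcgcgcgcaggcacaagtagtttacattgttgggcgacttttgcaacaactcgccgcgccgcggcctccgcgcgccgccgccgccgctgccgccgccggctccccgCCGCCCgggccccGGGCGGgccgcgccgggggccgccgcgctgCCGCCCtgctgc

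The Nr0b2 window holds TCAAGG at -69 and -36 from the start, TATAAA at -29 and a GC box at -43, none of which overlap. Of 33469 promoter windows of the same length searched on both strands, 14.8% hold TCAAGG, 14.2% hold TATAAA and 33.1% hold GGGCGG. The Rxra window is 84.7% G and C against a median of 51.7% over all windows, and it holds 5 GC boxes. The receptor half-site AGGTCA, found in 16.2% of windows, was present in Fgfr4 at -196 and in no other of the 9 member promoters available. Pairs of this half-site were in no member window, whether facing each other 1 base apart, as FXR prefers (0.0269% of windows), or in the same direction 1 base (0.0538%) or 4 bases apart (0.00598%). The LRH-1 site TCAAGGTCA (0.433%), the C/EBP site TTGCGCAA (0.17%) and the HNF1 site (0.00299%) were in none either. CCAAT, in 37.5% of windows, was present in Nr0b2 at 46 and in Nr1i2 on the opposite strand at -83. The letters in capitals were searched for after the sequences had been read, and a match of letters is not evidence of a bound site.

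FXR itself was lower in both ACLF groups. Nr1h4 (ENSRNOG00000007197, chromosome 7, 30003429 to 30162056, - strand) stood at 50.0, 56.2 and 49.6 TPM in the normal livers, at 30.1, 19.3 and 26.8 TPM in the empty group and at 36.5, 23.5 and 32.4 TPM in the UTOpiA group. Every ACLF liver was below every normal liver, while the ACLF groups overlapped. The ratio of mean TPM to that of normal livers was 0.49 (empty) and 0.59 (UTOpiA). On TMM-scaled counts Nr1h4 fell by 1.55 ± 0.27 (SE) on the log2 scale in the empty group, or 2.92-fold. The adjusted p was 0.00149 in edgeR's quasi-likelihood test. With UTOpiA, Nr1h4 fell by 1.03 ± 0.26 with an adjusted p = 0.0132, close to the 2-fold limit. Without UTOpiA replicate 2 that fall was 0.77, past the p threshold (adjusted p = 0.0212 in edgeR) but under 2-fold, and without normal replicate 2 it was 0.98 (adjusted p = 0.0451).

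Rxra, the shared partner of the receptors, followed FXR most closely. Rxra (ENSRNOG00000009446, chromosome 3, 6211789 to 6295908, + strand) was at 152, 157 and 167 TPM in normal livers, at 106, 60.8 and 73.1 TPM in the empty group and at 99.2, 89.5 and 109 TPM in the UTOpiA group. Again all 6 ACLF livers were below the normal ones. The ratio of mean TPM to that of normal livers was 0.50 (empty) and 0.63 (UTOpiA). On TMM-scaled counts the fall in the empty group was 1.49 ± 0.28 on the log2 scale (adjusted p = 0.00208, edgeR), or 2.82-fold. In the UTOpiA group it was 0.96 ± 0.27 (adjusted p = 0.0209, edgeR), under the 2-fold limit. Without normal replicate 2, normal replicate 3, UTOpiA replicate 1 or UTOpiA replicate 2, the UTOpiA difference no longer passed, at adjusted p-values up to 0.0650 in edgeR. Over the 9 libraries the mean-centred log2 CPM of Nr1h4 and Rxra lay 0.16 apart (root mean square), the smallest distance of any pair of members.

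The values of the other RXR genes were as follows. Rxrb, at 0.21 ± 0.15 (empty) and 0.27 ± 0.15 (UTOpiA) on the log2 scale, did not pass the test against normal (adjusted p = 0.268 and 0.175 in edgeR), whereas Rxrg fell by 2.55 ± 0.34 and 1.69 ± 0.33 (adjusted p = 0.000461 and 0.00386). The level of Rxra was also set against that of its partners. The summed TPM of 5 partners (Nr1h4, Nr1i2, Nr1i3, Nr1h3 and Vdr) over the TPM of Rxra, a ratio within each library that does not depend on scaling between libraries, was 2.09, 2.11 and 1.87 in normal livers. It was 2.53, 3.54 and 3.17 in empty livers and 3.35, 2.62 and 2.50 in UTOpiA livers. All ACLF livers were therefore above all normal livers, at means of 3.08 ± 0.51 (empty) and 2.82 ± 0.46 (UTOpiA) against 2.02 ± 0.13, and the ACLF groups overlapped. The ratio of Nr1h4 to Nr1i2 was lower in both ACLF groups, at 0.40 ± 0.12 and 0.42 ± 0.07 against 0.60 ± 0.07 in normal livers, again without overlap. These ratios were chosen with the members' values known and are a description, and an exact permutation test of 3 livers against 3 cannot give a two-sided p below 0.1.

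**Figure D2:**
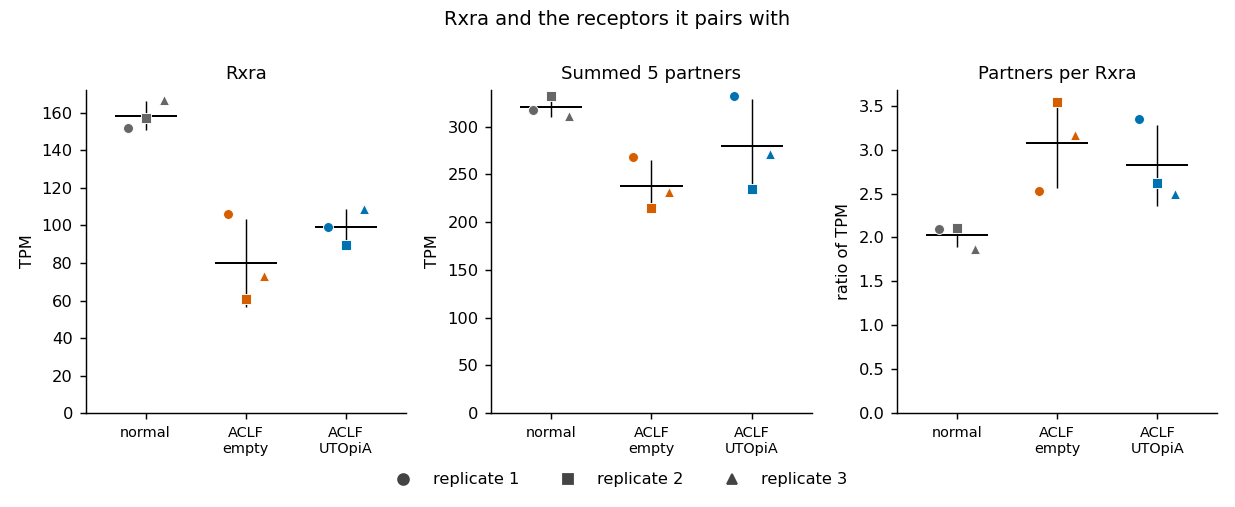
TPM of Rxra (left), summed TPM of its 5 partners Nr1h4, Nr1i2, Nr1i3, Nr1h3 and Vdr (middle) and the ratio of the second to the first (right) in each liver. Marker shape gives the replicate number, horizontal lines are group means and vertical bars are 1 SD on either side. The ratio is 1.87 to 2.11 in normal livers, below the 2.50 to 3.54 of ACLF livers.

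PXR, the main sensor of drugs and toxic bile acids, was lower in the empty group. Nr1i2 (ENSRNOG00000002906, chromosome 11, 65022100 to 65058545, + strand) was at 94.2, 84.4 and 83.3 TPM in normal livers, at 62.1, 71.6 and 59.8 TPM in the empty group and at 91.1, 47.9 and 89.3 TPM in the UTOpiA group. On TPM the empty group lay wholly below normal, whereas in the UTOpiA group only replicate 2 did. On TMM-scaled CPM, UTOpiA replicate 1 was below normal too, at 116.3 against 135.5 to 154.0. The log2 fold change was -0.95 ± 0.31 in the empty group (adjusted p = 0.0306, edgeR) and -0.45 ± 0.31 in the UTOpiA group (adjusted p = 0.276). The first of these was under 2-fold and so was not called. With 1 library left out it stayed between -1.05 and -0.85, but it no longer passed the p threshold without normal replicate 1, 2 or 3 or empty replicate 1 or 3 (adjusted p up to 0.0967 in edgeR), on library totals alone (-0.41, adjusted p = 0.165) or in the limma fits on TPM (-0.43 to -0.44, adjusted p = 0.152 to 0.200).

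CAR did not pass the test in either group with all 9 libraries. Nr1i3 (ENSRNOG00000003260, chromosome 13, 89586283 to 89591277, + strand) was at 37.2, 37.8 and 27.0 TPM in normal livers, at 36.7, 26.4 and 31.0 TPM in the empty group and at 50.1, 28.4 and 33.8 TPM in the UTOpiA group, and the 3 ranges overlapped. On TMM-scaled counts the empty group lay just below normal, with a log2 fold change of -0.63 ± 0.27 (adjusted p = 0.0785, edgeR). It did pass, at under 2-fold, when only the normal and empty libraries were fitted (-0.61, adjusted p = 0.0350) and without UTOpiA replicate 2 (-0.63, adjusted p = 0.0217). The UTOpiA value was -0.15 ± 0.27 (adjusted p = 0.679), and its sign turned to 0.18 on library totals and 0.11 on log2(TPM + 1).

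LXRα was moderately lower in the empty group. Nr1h3 (ENSRNOG00000013172, chromosome 3, 80004130 to 80012750, - strand) was at 136, 153 and 151 TPM in normal livers, at 138, 97.3 and 113 TPM in the empty group and at 154, 134 and 115 TPM in the UTOpiA group. On TPM both ACLF groups overlapped normal, and on TMM-scaled counts neither did. The fall in the empty group was 0.85 ± 0.19 on the log2 scale (adjusted p = 0.00589, edgeR), or 1.80-fold, and it passed in all 9 fits that left out 1 library, but not on library totals (-0.30, adjusted p = 0.183) or in the limma fits on TPM (-0.35, adjusted p = 0.130 to 0.156). The UTOpiA value was -0.44 ± 0.19 (adjusted p = 0.0970). Nr1h2, which encodes the widely expressed LXRβ, did not pass at 0.22 ± 0.14 and 0.21 ± 0.14 (adjusted p = 0.222 and 0.268).

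The vitamin D receptor and TGR5 were the members called higher in ACLF on TMM-scaled counts, both from levels near the limit of counting in normal livers. Both entered the test only through their counts in ACLF livers, so that their p-values are given as a description. Vdr (ENSRNOG00000054420, chromosome 7, 139342063 to 139394166, - strand) had 3, 6 and 9 counts in normal livers, 35, 31 and 41 in empty livers and 15, 37 and 15 in UTOpiA livers, that is 0.08 to 0.23, 0.75 to 0.98 and 0.37 to 0.90 TPM. All ACLF livers were above all normal livers. The rise was 1.85 ± 0.47 on the log2 scale in the empty group (adjusted p = 0.00947, edgeR), or 3.61-fold, and had an adjusted p under 0.05 in all 9 fits without 1 library. The UTOpiA rise was 1.41 ± 0.47 (adjusted p = 0.0395) and passed in only 3 of those 9 fits, not without normal replicate 1 or 2, empty replicate 1 or 3, or UTOpiA replicate 2 or 3 (adjusted p up to 0.147).

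Gpbar1 (ENSRNOG00000058260, chromosome 9, 81559605 to 81560594, + strand) had 0 counts in each normal liver, 7, 5 and 18 in empty livers and 6, 24 and 10 in UTOpiA livers, at 0.55 to 1.93 TPM and 0.72 to 2.63 TPM. A count of 0 allows up to 3 counts per library, and against that floor the empty group was at least 1.99-fold higher and the UTOpiA group at least 3.14-fold higher in TMM-scaled CPM (counts scaled by effective library size). These bounds use the group means, the lowest livers being 1.07 and 1.56 times the floor, and without empty replicate 3 the bound of the empty group was 1.26. The adjusted p-values were 0.0114 and 0.00819 in edgeR. Without empty replicate 3 or UTOpiA replicate 2 the gene was too low to be tested. Within the ACLF groups these livers had the highest Gpbar1 counts, and they also had the highest cholangiocyte marker sums, at 669 and 425 TPM. Of the macrophage, stellate cell and neutrophil markers tested, 5 of 8, 6 of 8 and 5 of 5 were called higher in the empty group, where 20.7% of all genes were. The neutrophil markers S100a8, S100a9, Csf3r and Cxcr2 had 0 to 15 counts in each normal liver, so these also entered the test through ACLF livers, and the Kupffer cell genes Clec4f and Cd5l did not pass, at -0.85 and -0.01 (adjusted p = 0.498 and 0.988, edgeR). The part of such cells in the higher Gpbar1 and Vdr counts was not tested.

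FGFR4 did not pass the test on TMM-scaled counts, and the co-receptor row was lower in the empty group. Fgfr4 (ENSRNOG00000016763, chromosome 17, 9990078 to 10004321, - strand) was at 13.0, 13.1 and 12.6 TPM in normal livers, at 16.8, 20.6 and 20.5 TPM in the empty group and at 18.0, 15.9 and 18.8 TPM in the UTOpiA group. On TPM, all ACLF livers were therefore above normal, whereas on TMM-scaled counts the groups overlapped, with log2 fold changes of 0.06 ± 0.19 and 0.16 ± 0.19 (adjusted p = 0.825 and 0.520, edgeR). On library totals alone the difference was 0.61 in the empty group (adjusted p = 0.00882, edgeR), at the median of all genes on that scale, 0.60, and 0.49 in the UTOpiA group (adjusted p = 0.0320), where that median was 0.42. The limma fits on TPM also passed in the empty group (0.54 to 0.57, adjusted p = 0.0131 to 0.0167) but not in the UTOpiA group (0.41 to 0.44, adjusted p = 0.0520 to 0.0651). Alb took 13.3% to 14.9% of all normal counts but 1.54% to 3.91% of all ACLF counts, and the part of such shifts in the scaling was not tested.

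The Klb row (ENSRNOG00000002834, chromosome 14, 44548287 to 44613904, - strand) overlaps Rfc1 on the other strand over 33689 bases, and Rfc1 had 583 to 945 counts, so that without a stated strand setting the counts cannot be given to Klb with certainty. The row held 191, 201 and 160 counts in normal livers, 176, 41 and 133 in empty livers and 84, 149 and 129 in UTOpiA livers. Empty replicate 2 was the lowest. The log2 fold change was -1.38 ± 0.43 in the empty group (adjusted p = 0.0261, edgeR) and -1.02 ± 0.43 in the UTOpiA group (adjusted p = 0.0858). The value of the UTOpiA group did pass in 2 of 19 alternatives. The lowest adjusted p among them was 0.00806 (edgeR, 1 library left out). The value of the empty group did not pass on library totals (-0.82, adjusted p = 0.127), in the limma fits on TPM (adjusted p = 0.0703 to 0.102), or without normal replicate 1, normal replicate 2 or empty replicate 3 (adjusted p up to 0.0687 in edgeR), and without empty replicate 2 it was -0.99, under 2-fold. In each ACLF liver the ratio of Fgfr4 to Klb TPM, 1.03 to 5.01 in the empty group and 1.06 to 1.96 in the UTOpiA group, was above the 0.59 to 0.73 of normal livers.

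SHP was the most variable member within the ACLF groups. Nr0b2 (ENSRNOG00000007229, chromosome 5, 151776004 to 151779319, + strand) was at 25.8, 27.3 and 45.7 TPM in normal livers, at 5.33, 48.0 and 5.84 TPM in the empty group and at 109, 9.66 and 6.84 TPM in the UTOpiA group. On TPM, empty replicate 2 and UTOpiA replicate 1 were above every normal liver, and the other 4 ACLF livers were below every normal liver. On TMM-scaled CPM, empty replicate 2 was within the normal range, at 26.3 against 20.0 to 35.8. In TMM-scaled CPM the highest liver exceeded the lowest 1.79-fold among normal livers, 8.98-fold in the empty group and 13.3-fold in the UTOpiA group. The group differences did not pass, at -1.25 ± 1.15 and -0.01 ± 1.12 on the log2 scale (adjusted p = 0.394 and 0.998, edgeR), with 95% intervals of -3.86 to 1.36 and -2.56 to 2.55. Without empty replicate 2 the first was -3.09, and without UTOpiA replicate 1 the second was -2.32, with adjusted p-values of 0.0834 and 0.107 in edgeR. DESeq2 gave no p-value for this gene.

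The same livers also stood apart in other genes, among them genes of bile acid synthesis and export. Cyp8b1, the sterol 12α-hydroxylase that sets the share of cholic acid, was at 244, 86.7 and 72.1 TPM in normal livers, at 680, 8.43 and 527 TPM in the empty group and at 164, 327 and 440 TPM in the UTOpiA group. It was therefore lowest, within each ACLF group, in the liver with the most Nr0b2. Cyp7a1, the rate-limiting enzyme of bile acid synthesis, ran the other way, at 42.7, 430 and 66.1 TPM in the empty group and 547, 327 and 200 TPM in the UTOpiA group, against 161, 397 and 186 TPM in normal livers, and within each ACLF group was highest where Nr0b2 was highest, though not among normal livers. Abcc2, a canalicular exporter named here after its values were seen, was at 191 to 285 TPM in normal livers, at 11.6, 168 and 7.03 TPM in the empty group and at 197, 80.6 and 72.3 TPM in the UTOpiA group, and was also highest in those livers. With all 9 libraries none of these 3 genes passed the test in any of the 3 comparisons. Their log2 fold changes in the empty group were 1.08 ± 1.14, -0.97 ± 0.82 and -2.34 ± 1.09 (adjusted p = 0.463, 0.356 and 0.105, edgeR). Between UTOpiA and empty livers Abcc2 was at 1.08, and without empty replicate 2 at 3.83 (adjusted p = 0.0455, edgeR). Slco1a4, an uptake carrier, and the macrophage gene Clec4f, both named after their values were seen, were also highest in empty replicate 2. Slco1a4 was at 78.8 TPM there against 5.56 and 8.02 TPM in the other empty livers, and Clec4f at 228 against 32.7 and 14.3 TPM. In UTOpiA replicates 1, 2 and 3 Slco1a4 was at 49.95, 20.3 and 9.02 TPM. Clec4f was at 136, 23.1 and 88.6 TPM there, so that replicate 1 stood less apart. Hepatocyte marker sums were also highest in empty replicate 2 and UTOpiA replicate 1, at 76370 and 68280 TPM, and their part in this pattern was not tested.

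**Figure D3:**
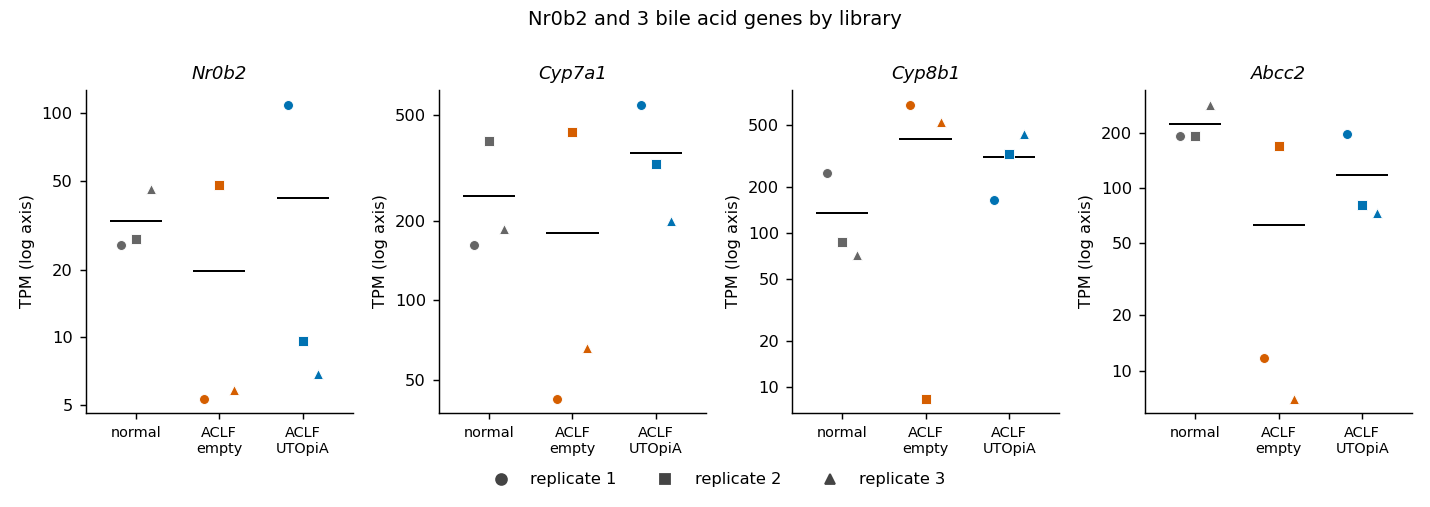
TPM on log axes of Nr0b2, Cyp7a1, Cyp8b1 and Abcc2 in each liver. Marker shape gives the replicate number and horizontal lines are arithmetic group means. Empty replicate 2 (square) and UTOpiA replicate 1 (circle) are the highest of their groups in Nr0b2, Cyp7a1 and Abcc2 and the lowest in Cyp8b1.

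Counted over the 9 members tested, 2 (Gpbar1 and Vdr) were called higher in empty than in normal livers and 2 lower (Nr1h4 and Rxra), where 20.7% and 11.1% of all genes were called. The members called higher are those that entered the test only through their ACLF counts, and with at least 10 counts required in every library 7 members were tested, of which 0 were called higher and 2 lower in the empty group. By the adjusted p alone, 2 were higher and 4 lower (Nr1h4, Nr1i2, Nr1h3 and Rxra), against 26.9% and 21.5% of all genes. On TMM-scaled counts 2 members lay wholly above normal and 5 wholly below it, against 32.4% and 28.8%. In the UTOpiA group 2 members were called higher (Gpbar1 and Vdr) and 1 lower (Nr1h4), against 18.2% and 6.81% of all genes. By the adjusted p alone 2 were higher and 2 lower (Nr1h4 and Rxra), against 23.3% and 16.2%, and 2 members lay wholly above and 3 wholly below normal, against 30.8% and 26.1%. Over the 9 members the median log2 fold change was -0.85 in the empty group, where that of all genes was 0.04. In the UTOpiA group it was -0.15, where that of all genes was 0.05. The medians of the 10 hepatocyte markers were -1.02 (empty) and -0.75 (UTOpiA). Both comparisons use the same normal livers. On TMM-scaled counts 65.2% of all calls against normal were higher for the empty and 72.8% for the UTOpiA group, and on library totals, which moved the median of all genes by 0.55 and 0.37, these shares were 86.8% and 87.6%. On library totals Nr1h4 and Rxra still fell in the empty group, by 1.00 and 0.95 (adjusted p = 0.00404 and 0.00438, edgeR), just under 2-fold.

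**Figure D4:**
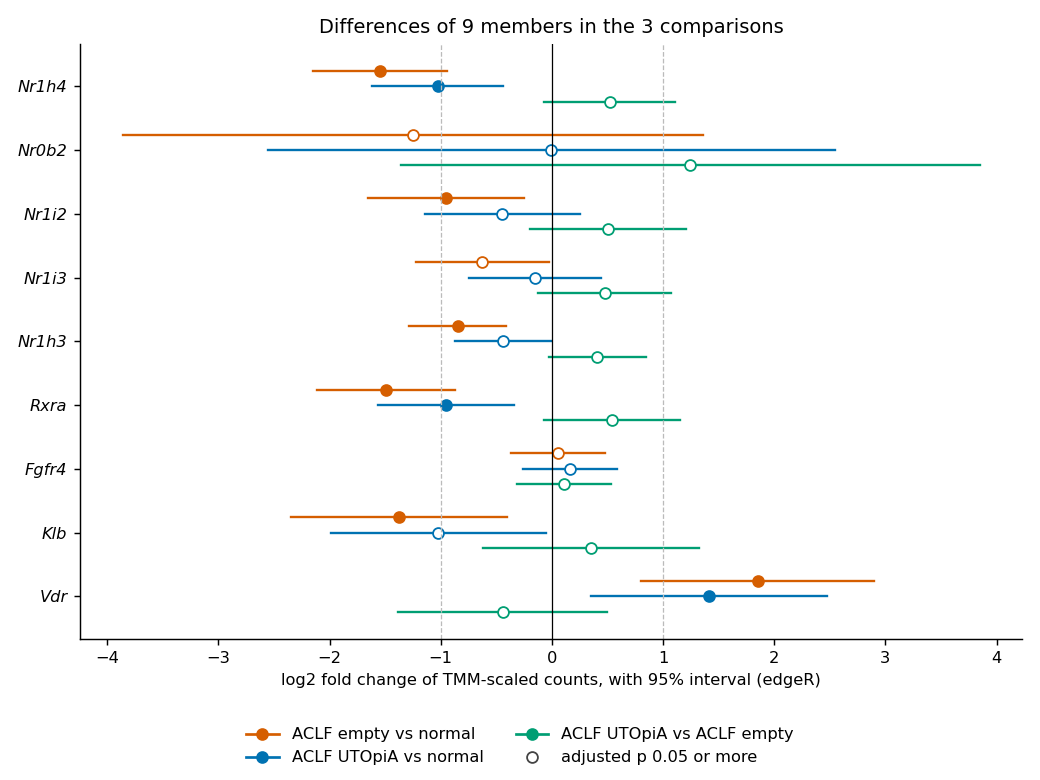
Log2 fold changes of TMM-scaled counts (horizontal axis, with 95% intervals from edgeR) for 9 members in the 3 comparisons, Gpbar1 being left out because it had no count in normal livers. Filled circles have an adjusted p under 0.05, and dashed lines mark a 2-fold change. The intervals of Nr1h4, Rxra, Nr1h3 and Klb against normal lie wholly below 0 in both ACLF groups. In the UTOpiA group Nr1h3 and Klb did not pass by the adjusted p. The intervals of UTOpiA against empty include 0 for all 9.

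Between the ACLF groups no member was called. No gene of the 14089 passed in either direction (0.0% higher and 0.0% lower, edgeR's quasi-likelihood test), with 1456 genes and 0 of the 9 members at an unadjusted p under 0.05. DESeq2 called 51 genes higher and 74 lower of 14484 (0.352% and 0.511%), and 0 of them were members. No member lay wholly above or wholly below the empty group, as 6.15% and 5.97% of all genes did. Nr1h4 was at 0.52 (95% interval -0.07 to 1.11), Rxra at 0.54 (-0.07 to 1.15), Nr1i2 at 0.50 (-0.19 to 1.20), Nr1i3 at 0.48 (-0.12 to 1.07) and Nr1h3 at 0.41 (-0.02 to 0.84), in the direction of normal, with adjusted p-values of 0.503 to 0.609. Each of these 5 intervals includes 0, with upper ends from 1.79-fold (Nr1h3) to 2.30-fold (Nr1i2). Nr0b2 was at 1.25 with an interval of -1.36 to 3.85, and turned to -1.06 without UTOpiA replicate 1. Vdr was at -0.44 (-1.39 to 0.50), Gpbar1 at 0.65 (-0.92 to 2.23), Fgfr4 at 0.11 (-0.32 to 0.53) and Klb at 0.35 (-0.62 to 1.32). The members' median was 0.50, against 0.00 for all genes and 0.40 for the 10 hepatocyte markers. The empty livers here are those also compared with normal. On library totals the median of all genes moved by -0.18, and Fgfr4 turned to -0.12.

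The targets of the receptors were taken from lists of textbook target genes. Among 13 tested genes that FXR induces, 6 were called higher and 3 lower in empty livers, where 20.7% and 11.1% of all genes were called, and 6 higher and 1 lower in UTOpiA livers, where 18.2% and 6.81% were. Among the genes called, the largest rises in the empty group were Kng1, a kininogen with close paralogs whose reads may be shared, at 2.80 ± 0.48, and Pltp, a phospholipid transfer protein, at 1.91 ± 0.19. The largest falls among them were Apoc2, the activator of lipoprotein lipase, at -2.60 ± 0.32 and Baat, which joins bile acids to amino acids, at -1.88 ± 0.31 (adjusted p = 0.00148, 0.000119, 0.000319 and 0.00127, edgeR). The listed genes called higher include Fga, Fgb and Fgg, the fibrinogen chains, which are also acute-phase genes. Abcb11, which encodes the bile salt export pump, fell by 1.37 ± 0.41 in the empty group (adjusted p = 0.0200) and was at -0.87 ± 0.40 in the UTOpiA group (adjusted p = 0.111). Abcb4 of the same list, named after its values were seen, was called higher in both groups. It was at 1.38 ± 0.24 (empty) and 2.21 ± 0.24 (UTOpiA), with adjusted p = 0.0015 and 0.00029 in edgeR. Slc51b, the FXR-induced basolateral exporter subunit, had 0 counts in 8 livers and 3 counts in UTOpiA replicate 1, too few to test.

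Of the 3 genes repressed through the FXR and SHP pathway, Cyp7a1 and Cyp8b1 did not pass, as given above, and Slc10a1, the bile acid uptake carrier NTCP, fell by 2.44 ± 0.50 in the empty group (adjusted p = 0.00384, edgeR). Slc10a1 in UTOpiA livers was at -1.28 ± 0.48 (adjusted p = 0.0620). The partner LRH-1, which acts on both Cyp7a1 and Nr0b2, did not pass in either group, with Nr5a2 at -0.09 ± 0.19 and -0.06 ± 0.19 (adjusted p = 0.724 and 0.816).

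Of 16 PXR and CAR targets tested, 7 were called lower and 2 higher in the empty group, where 11.1% and 20.7% of all genes were called. With UTOpiA 6 were called lower and 2 higher, where 6.81% and 18.2% of all genes were called. The list's median log2 fold changes were -1.73 and -1.19, against 0.04 and 0.05 over all genes. Cyp2b2, the classical phenobarbital-induced cytochrome P450, was at 112, 87.1 and 79.6 TPM in normal livers and at 1.07 to 3.96 TPM in all 6 ACLF livers, a fall of 5.98 ± 0.52 on the log2 scale in the empty group (adjusted p = 8.91e-05, edgeR). Gsta2, a glutathione transferase, fell by 4.26 ± 0.62, and Cyp2b1 fell by 2.98 ± 0.85 (adjusted p = 0.000896 and 0.0183). Cyp2b1 and Cyp2b2 are near-identical, so their reads may be divided wrongly between them. The genes called higher were Cyp3a62 at 2.79 ± 0.34 and Abcc3, a basolateral exporter of conjugated bile acids, at 1.69 ± 0.48 (adjusted p = 0.000294 and 0.0177). Cyp3a2 was not analysed here.

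LXR targets moved in both directions. Of 10 tested, 3 were called higher and 3 lower in empty livers (20.7% and 11.1% of all genes), and 3 higher and 4 lower in UTOpiA livers (18.2% and 6.81% of all genes). The genes called lower in the empty group all make fatty acids or drive their synthesis, namely Scd at -5.47 ± 1.70, Fasn at -5.43 ± 0.68 and Srebf1 at -4.31 ± 0.68 (adjusted p = 0.0266, 0.000348 and 0.00113, edgeR). Lpl, the lipoprotein lipase, rose from 0.28 to 0.93 TPM in normal livers to 30.1 to 175 TPM in ACLF livers, by 6.75 ± 0.77 in the empty group (adjusted p = 0.000287), and Abcg1, a cholesterol exporter of macrophages, rose by 1.50 ± 0.32 (adjusted p = 0.00398). Abca1, the other main cholesterol exporter, was lower by less than 2-fold, at -0.83 ± 0.22 and -0.90 ± 0.22 (adjusted p = 0.0120 and 0.0111).

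Few VDR targets could be measured. Of 2 tested, Trpv6, an epithelial calcium channel, was at 1.20 ± 0.45 in the empty group (adjusted p = 0.0497, edgeR), just inside the threshold, and none was called in the UTOpiA group. Trpv6 had 16, 7 and 8 counts in normal livers and 33, 34 and 52 in empty livers, so that it too entered the test only through ACLF livers. Cyp24a1, the most responsive VDR target in many tissues, was listed at 0 in all 9 livers.

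In the FGF15/19 list, 2 of 8 tested genes were called higher in both ACLF groups and none lower, a share of higher calls near that of all genes (20.7% and 18.2%). These were the receptors Fgfr3, at 2.90 ± 0.45 (empty) and 2.31 ± 0.44 (UTOpiA), and Fgfr1, at 2.32 ± 0.44 and 1.71 ± 0.43 (adjusted p = 0.00112, 0.00408, 0.00259 and 0.0133, edgeR). Fgfr3 was at 6.97 to 9.95 TPM in normal livers and 23.9 to 114 TPM in ACLF livers, so that it passed Fgfr4 in TPM in every ACLF liver. In both ACLF groups the livers with the least Fgfr3, empty replicate 1 at 48.4 TPM and UTOpiA replicate 3 at 23.9 TPM, also had the lowest cholangiocyte marker sums. The ligand row Fgf19 was listed at 0 in all 9 livers.

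Among 9 partner and upstream factors, 4 were called lower and none higher in the empty group, and 2 lower and none higher in the UTOpiA group. Of all genes, 11.1% and 6.81% were called lower and 20.7% and 18.2% higher. Rxrg and Foxa2, a factor that opens liver chromatin, fell most in the empty group, at -2.55 ± 0.34 and -1.59 ± 0.35 (adjusted p = 0.000461 and 0.00513, edgeR). Hnf4a, the main hepatocyte nuclear receptor, fell by 1.22 ± 0.27 in the empty group (adjusted p = 0.00511) and was at -0.74 ± 0.27 in the UTOpiA group (adjusted p = 0.0524). Of 20 coactivators and corepressors, 1 was called higher and 2 lower in empty livers, and 0 higher and 1 lower in UTOpiA livers, the lower calls being near the share of all genes. Prmt1, an arginine methyltransferase, rose by 1.02 ± 0.19, whereas Ppargc1b and Ncoa2 fell by 1.71 ± 0.38 and 1.13 ± 0.17 (adjusted p = 0.00198, 0.00490 and 0.000692). Ppargc1a was at -0.57 ± 0.24 and 0.04 ± 0.23 (adjusted p = 0.0689 and 0.911). Of 6 genes that hold CAR in the cytoplasm or signal to it, Egfr alone was called in the empty group, at -1.30 ± 0.27 (adjusted p = 0.00360), and none was called in the UTOpiA group.

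**Figure D5:**
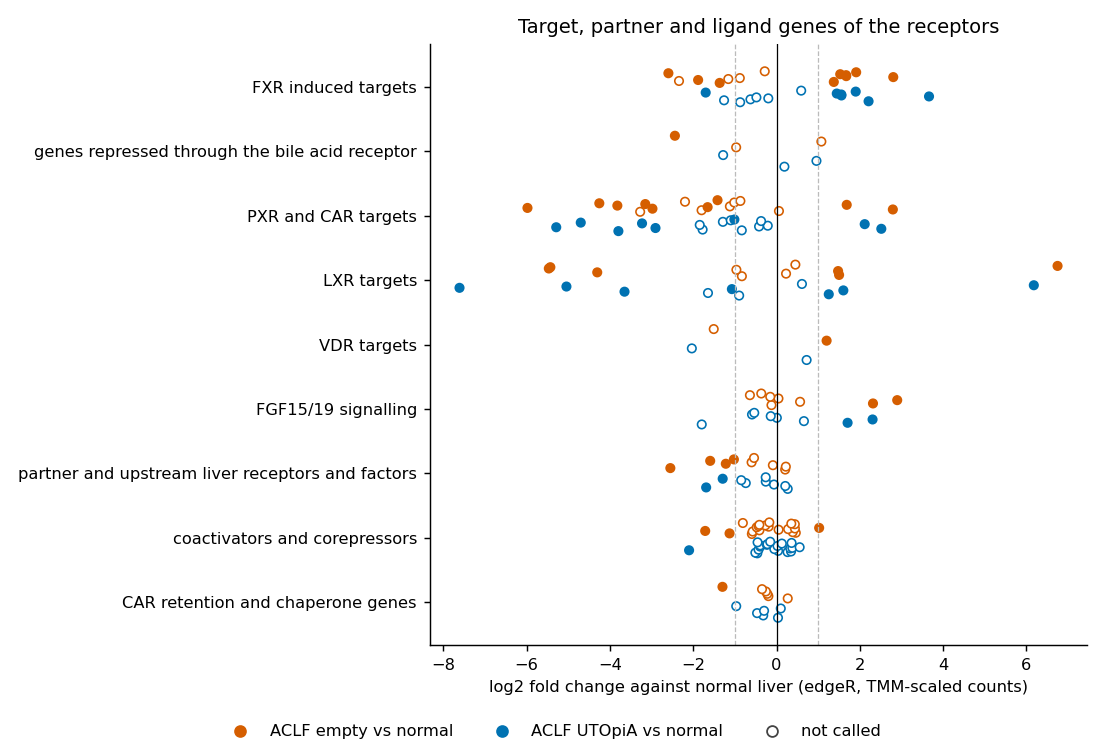
Log2 fold changes against normal liver (horizontal axis, edgeR, TMM-scaled counts) of the tested genes of each list, in the ACLF empty and ACLF UTOpiA groups. Each circle is 1 gene, filled circles were called, and dashed lines mark a 2-fold change. PXR and CAR targets lie mostly below 0, LXR targets lie on both sides and coactivators and corepressors lie mostly within 2-fold.

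The genes whose patterns were nearest to each member over the 9 libraries were found by the root mean square distance of mean-centred log2 CPM. Nearest to Nr1h4 were Tert and Abcc6 (0.11 and 0.14, where the spread of Nr1h4 itself was 0.73), and among the nearest to Rxra was Scp2 (0.15, spread 0.71). For Nr1i2 they were Plbd1 and Sardh (0.11 and 0.12, spread 0.55), for Nr1i3 Rnf5 and Mir1896 (0.16 and 0.17, spread 0.41) and for Nr1h3 Uqcrb and Tpcn1 (0.12 each, spread 0.40). Nr0b2 had no close neighbour, since even Enpp2 and Ephx1 lay 0.60 and 0.61 away, with a spread of 1.55. For Fgfr4 they were Nlk and Zscan25 (0.09 each, spread 0.21), and for the Klb row Clpx and Rtp3 (0.28 and 0.30, spread 0.84). For the low genes they were Npas2 and Fap with Gpbar1 (0.17 and 0.25, spread 1.27) and Dclk2 and Atrnl1 with Vdr (0.16 and 0.23, spread 0.80). Distances of low genes are set in part by the constant added before taking logs.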

How the data were processed

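Per the methods, the authors used Cutadapt 1.9.1 for trimming, HISAT2 2.0.1 for alignment and featureCounts 2.6.0 for counting reads in genes. They deposited unnormalised counts for 32883 rat genes and a table of TPM, scaled by gene length. Their methods name a mouse build and the submitters' processing notes name Trimmomatic and rn6, so positions are given as in the tables. The library kit is also given differently in both places, and whether reads were counted by strand is not given in the sources used here.

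For differences between groups the counts were fitted in edgeR 4.0.16 under R 4.3.3 (filterByExpr, TMM, robust quasi-likelihood F-test, 1 mean per group, all 9 libraries, Benjamini-Hochberg adjustment), after each test had been tried on simulated data. CPM are counts divided by the TMM-scaled library size. Ratios between members were computed in each library, with exact permutation tests in scipy 1.17.1 that could not reach the threshold and are not used. Alternatives used DESeq2 1.42.0, limma 3.58.1 on log2(TPM + 1) or log2(TPM + 0.1), other scalings and filters, the 6 libraries compared, a replicate block and each library left out.

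The members, gene lists and tests were chosen with earlier results of these data known. Named genes are all members, up to 2 called genes with the largest rise and 2 with the largest fall of each list in the empty group, fixed genes of each pathway, and the 2 nearest genes of each member, of which 1 is not reported here. Labels call the libraries biological replicates. Promoter windows were available for 9 members. Intervals and floors cover counting error and the spread between these livers only.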

Additional observations from a re-analysis of the deposited data

How the results depend on the processing

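The members called in the empty group against normal (4) were 3 to 5 when 1 library was left out. On library totals they were 2, both higher (Gpbar1 and Vdr). They were 2, both lower, with limma on log2(TPM + 1), on log2(TPM + 0.1) or without a filter. With at least 10 counts in every library they were also 2, both lower. The filters and limma remove or compress the low genes Gpbar1 and Vdr. For UTOpiA against normal (3 members) the count was 0 with limma on log2(TPM + 1) or log2(TPM + 0.1) and with at least 10 counts in every library, 1 with limma without a filter and with only the 6 libraries compared, and 0 to 3 with 1 library left out, being 0 without UTOpiA replicate 2. The members called between the ACLF groups were 0 under every alternative run. The listed pathway and marker genes called between the ACLF groups (0) were 2 with DESeq2 (Baat and Lcn2) and 0 to 3 with 1 library left out, the 3 being Lcn2, Slc27a5 and Abcc2 without empty replicate 2. Over these lists the lower calls against normal, 27 in the empty and 19 in the UTOpiA group, were 41 and 30 without empty replicate 2 and 16 and 11 on library totals.

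Signs turned for differences that did not pass. In the empty group, Fgfr4 ranged from -0.0097 to 0.11 with 1 library left out. For UTOpiA against normal, Nr0b2 was 0.38 on library totals, 0.080 with at least 10 counts, and -2.32 to 0.49 with 1 library left out. Nr1i3 was 0.11 under each limma fit, 0.18 on library totals and -0.38 to 0.10 with 1 library left out, and Fgfr4 was -0.065 to 0.35. Between the ACLF groups, Nr0b2 was -1.06 to 3.09, Fgfr4 was -0.12 to 0.29 and Klb was -0.036 to 0.81 with 1 library left out. Fgfr4 was also -0.12 on library totals, -0.13 with limma on log2(TPM + 0.1) and -0.13 with the other limma fits. The causes were not tested.

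Deviations of livers with the same replicate number correlated at -0.18 to 0.06 between groups, and those with different numbers at -0.19 to 0.29. With 3 livers per group these values cannot show whether the numbers pair the livers. With the replicate number as a block, 4, 2 and 0 members were called in the 3 comparisons, Vdr in the UTOpiA group had an adjusted p of 0.0605 and Nr1i2 in the empty group one of 0.0543.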
